A study of Mus musculus with 15 samples.

Results

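Transcripts of 10 secreted growth factor genes were followed in periprostatic fat, the adipose tissue around the prostate, of 15 male C57BL/6J mice. The genes were the fibroblast growth factors Fgf1, Fgf2, Fgf7 and Fgf10, the hepatocyte growth factor Hgf, the vascular endothelial growth factors Vegfa, Vegfb and Vegfc, and the platelet-derived growth factors Pdgfa and Pdgfd. They were chosen by gene symbol from the 23995 symbols listed in the files, as ligands that this fat could send to the prostate, and all 10 were found and were above 0 in all 15 libraries.

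These ligands act on receptor tyrosine kinases of neighbouring cells. VEGFs guide blood and lymphatic vessels, PDGFs act on fibroblasts, progenitors and pericytes, and Hgf and the FGFs Fgf7 and Fgf10 carry signals of stromal cells to epithelium, a route known in prostate development. Adipose tissue is known as a source of VEGFs, whose supply accompanies the growth of vessels in expanding fat.

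The mice formed 3 groups of 5. HFD estradiol mice ate a high-fat diet (60 kcal% fat) and bore a pellet of 0.25 mg 17beta-estradiol with continuous release over 60 days. HFD placebo mice ate that same diet and bore a placebo pellet, and LFD mice ate a low-fat diet (10 kcal% fat) with no implant, so that diet and implantation differ together against LFD. Feeding started at 6 weeks of age, implants were placed 12 weeks later, and fat was taken after 8 more weeks at an age of 26 weeks. Each library came from 1 mouse, so replicates are separate animals.

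Values are FPKM, fragment numbers divided by transcript length and library size, so that levels of different genes can be set side by side. Libraries were brought to a common scale with 1 factor each, because sums of FPKM were 37561 to 60726 in HFD estradiol, 34544 to 105910 in HFD placebo and 34449 to 38755 in LFD. In a transcript of 2 kb, 1 scaled FPKM stood for an estimated 36.7 to 96.2 fragments in HFD estradiol, 35.0 to 221 in HFD placebo and 20.7 to 40.1 in LFD. By the file names, 8 libraries ran on sequencing lane 5 (all LFD, HFD placebo 1 to 3) and 7 on lane 6 (all HFD estradiol, HFD placebo 4 and 5), so lane and group cannot be told apart between HFD estradiol and LFD. Library LFD 5 stood apart by epithelial transcripts: the 15 prostate and other epithelial markers summed to 129 scaled FPKM there, of which Spink3, a secretory gene of male accessory glands, made up 125, against 0.0944 to 0.750 in the other 14 libraries. Adipocyte markers marked the tissue as fat in all libraries, with sums of 15 markers of 1911 to 2690 scaled FPKM in HFD estradiol, 1148 to 1823 in HFD placebo and 2167 to 3045 in LFD.

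The clearest differences lay in Vegfb, Vegfa and Fgf10. All 3 were lower in HFD placebo than in LFD, and Vegfb and Fgf10 were higher in HFD estradiol than in HFD placebo. Among genes of low level, Hgf, Pdgfa and Fgf7 had higher means in HFD placebo than in LFD, and Fgf2 had its highest mean in HFD estradiol. Fgf1, Pdgfd and Vegfc were called in no comparison by the tests used here on scaled values of all 3 groups. The plot of ligand levels by mouse shows every value behind these statements.

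**Figure D1:**
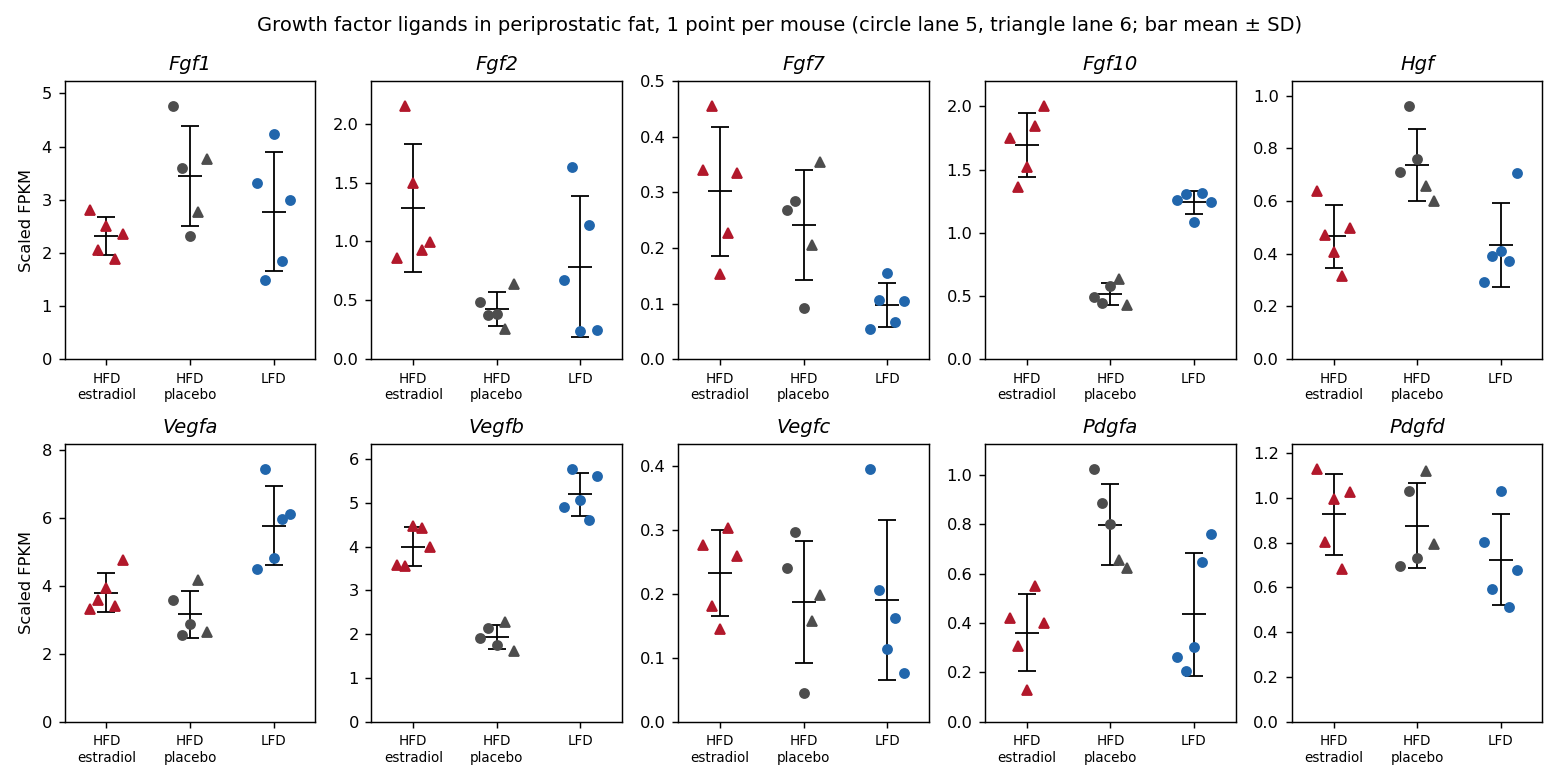
Scaled FPKM (y axis, from 0, a separate scale for each gene) of the 10 ligands in HFD estradiol, HFD placebo and LFD mice, 1 point per mouse, with circles for lane 5, triangles for lane 6 and bars for the mean and SD of 5 mice. Vegfb and Fgf10 in HFD placebo lie below every mouse of both other groups, at most at 2.29 and 0.636, and Vegfa in HFD placebo lies below every LFD mouse.

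The ligands were tested in 2 ways, by level. The first fit used limma on log2(scaled FPKM + 1) for the 5615 genes that reached a scaled FPKM of 1 in 5 or more libraries, with adjusted p (Benjamini-Hochberg over all genes tested) below 0.05 as the threshold, and covered Fgf1, Fgf10, Vegfa, Vegfb and Pdgfd. Fgf10 passed this filter through the HFD estradiol and LFD libraries, since it was under 1 in all HFD placebo libraries, and Pdgfd passed with 5 libraries. In HFD placebo minus LFD, 3 of the 5 were lower and none was higher, where 22.0% of all genes tested were lower and 21.3% higher. In HFD estradiol minus HFD placebo, 2 of the 5 were higher and none was lower, where 14.3% of all genes were higher and 16.0% lower. In HFD estradiol minus LFD, 1 was higher and 2 were lower, where 3.95% were higher and 3.74% lower. The comparisons share groups, so their calls are not independent of each other.

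Fgf2, Fgf7, Hgf, Vegfc and Pdgfa were below that level. Differences in their mean scaled FPKM were tested by exact permutation of the mice (two-sided) on 16111 genes, whose smallest possible p with 5 mice a group is 0.0079. After adjustment over all of these genes the exact test called 0 of the 5 in each comparison. It called 17.1% of all genes in HFD placebo minus LFD and 0.0% in both comparisons of HFD estradiol. There, genes at the smallest possible p had an adjusted p of 0.0552 (against HFD placebo) and 0.169 (against LFD). The exact test could therefore call no gene in either, so its lack of calls there says nothing of the ligands. In these comparisons 4926 genes (against HFD placebo) and 2244 genes (against LFD) had an unadjusted p below 0.05. At that unadjusted level stood 3 of the 5 in HFD placebo minus LFD (Fgf7, Hgf, Pdgfa), where 5272 of all genes did, 3 in HFD estradiol minus HFD placebo (Fgf2, Hgf, Pdgfa) and 1 in HFD estradiol minus LFD (Fgf7). A second limma fit, chosen after the data had been seen, kept the 12693 genes that reached a scaled FPKM of 0.1 in 5 or more libraries and used log2(scaled FPKM + 0.1). Of these 5 ligands it called the same 3, 3 and 1 in the comparisons, where 31.6%, 21.3% and 3.9% of all genes were called in either direction. Low genes below are given with both results.

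**Figure D2:**
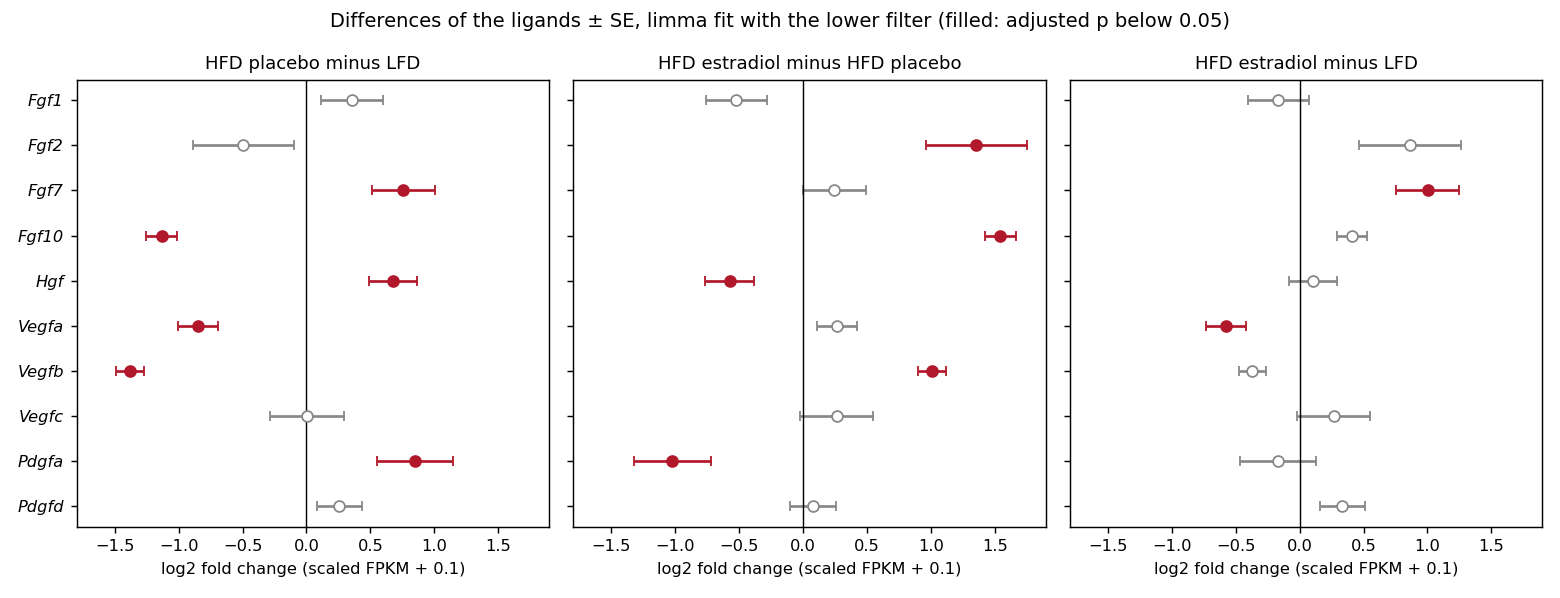
Differences of the 10 ligands in the second limma fit, as log2 fold change of scaled FPKM + 0.1 (x axis) with SE, in 1 panel per comparison (HFD placebo minus LFD left, HFD estradiol minus HFD placebo in the middle, HFD estradiol minus LFD right), with filled points for an adjusted p below 0.05. Vegfb, Vegfa and Fgf10 lie left of 0 in the first panel, and Fgf10, Fgf2 and Vegfb right of 0 in the second. In the third panel Fgf10 and Vegfb are open in this fit, with adjusted p of 0.0677 and 0.0687, although the first fit called both.

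Vegfb, a ligand of Flt1 known in mice for expression in heart, muscle and brown fat, had the smallest adjusted p of the 10 genes. Its scaled FPKM was 3.57, 3.55, 4.48, 4.42 and 3.98 in HFD estradiol mice 1 to 5, 1.91, 2.13, 1.75, 2.29 and 1.62 in HFD placebo mice and 4.90, 5.77, 5.06, 4.59 and 5.62 in LFD mice. The 3 groups did not overlap, with HFD placebo lowest and LFD highest. Groups did not overlap for 27.6% of all genes tested in HFD placebo minus LFD and for 21.2% in HFD estradiol minus HFD placebo. Means were 4.00 ± 0.446 in HFD estradiol, 1.94 ± 0.274 in HFD placebo and 5.19 ± 0.494 in LFD (SD, n = 5 each). HFD placebo was 2.68-fold lower than LFD (limma log2 fold change -1.08, SE 0.08, adjusted p = 4.27e-07). HFD estradiol was 2.06-fold higher than HFD placebo (limma 0.77, SE 0.08, adjusted p = 1.03e-05).

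Vegfa, the main driver of blood vessel growth through the receptor Kdr, was highest in LFD. It had 3.32, 3.57, 3.92, 3.42 and 4.76 scaled FPKM in HFD estradiol mice, 3.57, 2.56, 2.87, 4.17 and 2.65 in HFD placebo mice and 4.49, 7.43, 4.82, 5.98 and 6.12 in LFD mice. Every LFD mouse lay above every HFD placebo mouse, whereas both HFD groups overlapped widely. Between HFD placebo and LFD, 27.6% of all genes tested did not overlap. HFD placebo was 1.82-fold lower than LFD (limma -0.70, SE 0.13, adjusted p = 0.000429). The difference of HFD estradiol from HFD placebo was 0.21 with an SE of 0.13 (limma adjusted p = 0.235), so a higher level was not called, and 19 of the 25 pairs of mice had the HFD estradiol mouse above the HFD placebo mouse.

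Vegfc, a growth factor of lymphatic vessels that acts on Flt4, was the lowest ligand in both HFD groups. It had 0.144 to 0.303 scaled FPKM in HFD estradiol, 0.0443 to 0.297 in HFD placebo and 0.0757 to 0.395 in LFD, and the groups overlapped throughout. These levels rest on an estimated 2.66 to 49.0 fragments per library, a depth at which small differences could not be detected. The difference of HFD placebo from LFD had an exact p of 0.968 and that of HFD estradiol from HFD placebo an exact p of 0.429.

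Fgf10, a ligand of the epithelial splice form of Fgfr2, had its lowest level in HFD placebo and its highest in HFD estradiol. Its scaled FPKM was 1.75, 1.36, 1.52, 1.84 and 2.00 in HFD estradiol mice, 0.494, 0.442, 0.577, 0.636 and 0.427 in HFD placebo mice and 1.26, 1.30, 1.09, 1.31 and 1.24 in LFD mice. The 3 groups did not overlap. Among all genes tested, this held for 27.6% in HFD placebo minus LFD and 21.2% in HFD estradiol minus HFD placebo. In HFD estradiol minus LFD it held for 8.05%. HFD placebo was 2.41-fold lower than LFD (limma -0.57, SE 0.07, adjusted p = 7.31e-06). HFD estradiol was 3.29-fold higher than HFD placebo (limma 0.83, SE 0.07, adjusted p = 1.13e-06). On the log2(value + 1) scale the fit understates such ratios of low values. The gene span of Fgf10 overlaps Gm16263 on the opposite strand.

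The calls of Vegfb, Vegfa and Fgf10 held within sequencing lanes. With the 3 HFD placebo libraries of lane 5 against LFD, limma gave -1.08 for Vegfb (adjusted p = 2.02e-05), -0.75 for Vegfa (adjusted p = 0.00334) and -0.58 for Fgf10 (adjusted p = 0.000232). With HFD estradiol against the 2 HFD placebo libraries of lane 6, it gave 0.76 for Vegfb (adjusted p = 0.01) and 0.81 for Fgf10 (adjusted p = 0.00501). In HFD placebo minus LFD the directions of Vegfa and Fgf10 depended on the scaling, and Vegfb kept its direction but not its call. Without scaling, the median of all genes was 0.77 higher in HFD placebo than in LFD, and the differences on FPKM as deposited were -0.15 for Vegfb, 0.28 for Vegfa and 0.03 for Fgf10, none of them called, and all 3 lay below that median.

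Because these 3 genes were all lower in HFD placebo than in LFD, the sequences just upstream of their starts are shown, from RefSeq on GRCm38. Each line gives the 250 bases before the annotated start, on the strand of the gene, with capitals for the nuclear receptor motif AGGTCA and the GC box GGGCGG on either strand. The windows are Vegfb at chr19:6987652-6987901 (minus strand), Vegfa at chr17:46032378-46032627 (minus strand) and Fgf10 at chr13:118714449-118714698 (plus strand). The genes themselves span chr19:6982473-6987651, chr17:46016993-46032369 and chr13:118669791-118792115 in GENCODE vM21, and for Fgf10 another annotated transcript begins further upstream than the window.
Vegfb: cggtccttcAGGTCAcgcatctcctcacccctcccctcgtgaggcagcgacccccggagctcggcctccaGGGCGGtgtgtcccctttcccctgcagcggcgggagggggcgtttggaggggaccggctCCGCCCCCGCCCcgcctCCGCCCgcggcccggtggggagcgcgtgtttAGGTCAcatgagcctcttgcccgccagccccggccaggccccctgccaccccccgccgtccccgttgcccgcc
Vegfa: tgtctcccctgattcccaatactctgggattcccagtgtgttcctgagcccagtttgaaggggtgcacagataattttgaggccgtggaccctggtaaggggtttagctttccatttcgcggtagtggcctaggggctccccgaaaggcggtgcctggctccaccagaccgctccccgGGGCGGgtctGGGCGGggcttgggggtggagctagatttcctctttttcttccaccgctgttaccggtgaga
Fgf10: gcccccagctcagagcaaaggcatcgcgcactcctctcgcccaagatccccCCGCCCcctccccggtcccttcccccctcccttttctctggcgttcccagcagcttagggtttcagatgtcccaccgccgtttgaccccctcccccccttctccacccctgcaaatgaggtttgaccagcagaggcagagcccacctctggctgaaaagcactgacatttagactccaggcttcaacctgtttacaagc
The Vegfb window held 2 AGGTCA and 4 GGGCGG and was 76.4% G or C. The Vegfa window held no AGGTCA and 2 GGGCGG at 59.2% G or C, and the Fgf10 window held no AGGTCA and 1 GGGCGG at 61.2%. Of 32851 promoter windows of that length, 14.0% held AGGTCA and 32.7% held GGGCGG, with a median of 52.4% G or C. The full palindromic estrogen response element, present in 21 of all windows, was in none of the 3, nor were ACGTG (in 16.6% of windows) or TATAAA (in 12.4%), all searched on both strands. The core GCGTG, in 28.2% of windows, was found 2 times in the Vegfb window and in neither of the others. Such matches describe letters in these windows and say nothing of factors bound there.

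The balance of Vegfa and Vegfb within a library does not depend on the scaling of the library. The ratio of Vegfa to Vegfb was 0.773 to 1.20 in HFD estradiol with a median of 0.930, 1.20 to 1.87 in HFD placebo with a median of 1.64, and 0.916 to 1.30 in LFD with a median of 1.09. Vegfa was above Vegfb in 2 of 5 HFD estradiol mice, 5 of 5 HFD placebo mice and 3 of 5 LFD mice. The log2 ratio was 0.56 higher in HFD placebo than in LFD (exact two-sided permutation p = 0.0238, 0.0357 after Benjamini-Hochberg adjustment over 3 comparisons). It was -0.77 in HFD estradiol minus HFD placebo (exact p = 0.0079, adjusted 0.0238) and -0.21 in HFD estradiol minus LFD (exact p = 0.190, adjusted 0.190).

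Other ratios, picked after their values were seen, are given as description. The ratio of Vegfb to Fgf1 was above 1 in 5 of 5 HFD estradiol mice, 0 of 5 HFD placebo mice and 5 of 5 LFD mice, with medians of 1.73, 0.592 and 1.88. The ratio of Fgf10 to Pdgfa split the mice in the same way, with medians of 4.44, 0.684 and 3.62 and a lowest value of 1.64 outside HFD placebo. For Fgf10 to Fgf1 the medians were 0.665, 0.123 and 0.415.

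**Figure D3:**
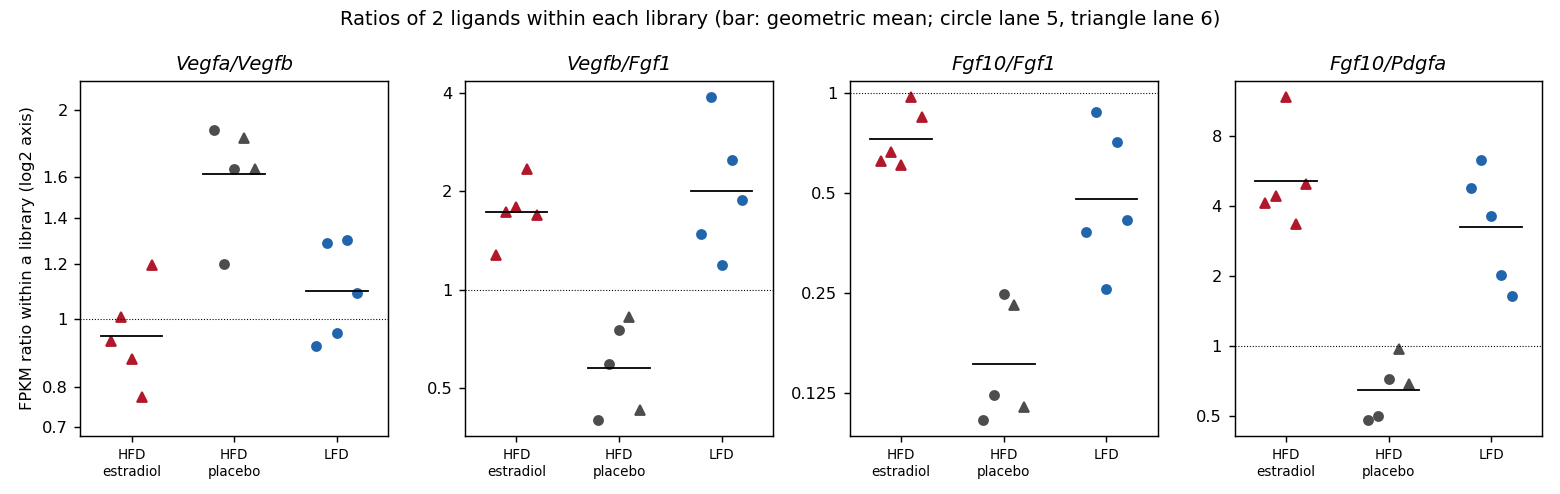
Ratios of 2 ligands within each library (y axis, log2 scale) in HFD estradiol, HFD placebo and LFD mice, 1 point per mouse, with circles for lane 5, triangles for lane 6, a bar for the geometric mean and a dotted line at 1. In the panels of Vegfb to Fgf1 and of Fgf10 to Pdgfa, all HFD placebo mice lie under 1 and all other mice above it.

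Fgf7, like Fgf10 a ligand of epithelial Fgfr2 made by stromal cells, differed in another way. Its scaled FPKM was 0.340, 0.455, 0.154, 0.227 and 0.335 in HFD estradiol mice, 0.268, 0.285, 0.0912, 0.205 and 0.355 in HFD placebo mice and 0.0541, 0.106, 0.155, 0.0664 and 0.104 in LFD mice. HFD placebo 3 lay among the LFD mice, and the other HFD placebo mice above them. LFD values rest on an estimated 2.98 to 6.01 fragments per library. HFD placebo was 2.49-fold higher than LFD by the means (exact p = 0.0317, adjusted 0.113). The second limma fit gave 0.76 (SE 0.25, adjusted p = 0.0268), with the call lost when lane was a term (0.63, adjusted p = 0.112) or without any of LFD 1, LFD 4 and HFD placebo 1, 2 or 5, where adjusted p reached 0.0761. HFD estradiol against HFD placebo gave 0.25 (second fit, SE 0.25, adjusted p = 0.533). The gene overlaps Fam227b on the opposite strand.

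Fgf2, a broadly acting FGF that lacks a classical signal peptide, was highest in HFD estradiol. It had 0.858, 2.15, 1.50, 0.927 and 0.999 scaled FPKM in HFD estradiol mice, 0.481, 0.375, 0.379, 0.259 and 0.641 in HFD placebo mice and 0.675, 1.64, 0.241, 1.14 and 0.243 in LFD mice. Both HFD groups were apart, while the LFD mice spread over both, with a coefficient of variation of 76.6%. HFD estradiol was 3.01-fold higher than HFD placebo (exact p = 0.0079, adjusted 0.0552, with 14.4% of the 16111 genes not overlapping between the groups). The second limma fit gave 1.36 (SE 0.40, adjusted p = 0.0216). The call was lost when lane was a term, with a similar estimate of 1.35 (adjusted p = 0.175), and on FPKM as deposited (1.06, adjusted p = 0.229). It was also lost without HFD estradiol 2 or 3 (adjusted p up to 0.0616). HFD placebo minus LFD was -0.49 with an SE of 0.40 (second fit, adjusted p = 0.373).

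Fgf2 shares its locus at chr3:37348346-37410108 (GENCODE vM21) with Nudt6, an antisense gene on the opposite strand. The sources used here do not say whether counting used the strand of the stranded libraries, so reads of the overlap may belong to either gene. By their gene spans, Fgf1, Fgf7, Fgf10, Pdgfa and Pdgfd also overlap genes on the opposite strand (Arhgap26, Fam227b, Gm16263, 6330403L08Rik and Ddi1 in this order). The same doubt applies to them. Nudt6 had 0.784, 0.986, 1.11, 1.05 and 0.480 scaled FPKM in HFD estradiol mice, 0.784, 0.551, 0.414, 0.399 and 0.612 in HFD placebo mice and 0.540, 0.858, 0.421, 0.543 and 0.424 in LFD mice. The 4 highest HFD estradiol mice were at or above the highest HFD placebo mouse. The difference of HFD estradiol from HFD placebo was 0.58 (second fit, adjusted p = 0.0746).

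Fgf1, a ligand of all FGF receptors that is known in mice for a part in the remodelling of visceral fat under high-fat feeding, was the highest of the FGFs in each group. It had 2.80, 2.05, 2.50, 1.89 and 2.35 scaled FPKM in HFD estradiol mice, 4.76, 3.60, 2.32, 2.77 and 3.76 in HFD placebo mice and 3.31, 1.49, 4.24, 1.84 and 2.99 in LFD mice. Groups overlapped in each comparison, and the LFD mice differed most among themselves. The limma difference was 0.26 (SE 0.18, adjusted p = 0.271) for HFD placebo minus LFD and -0.40 (SE 0.18, adjusted p = 0.115) for HFD estradiol minus HFD placebo. On FPKM as deposited the first was 1.11 and was called (adjusted p = 0.0138). The other was called when the fit held those 2 groups only (adjusted p = 0.0438).

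Hgf, the ligand of the receptor Met, was highest in HFD placebo. Its scaled FPKM was 0.640, 0.469, 0.408, 0.316 and 0.498 in HFD estradiol mice, 0.710, 0.960, 0.758, 0.657 and 0.600 in HFD placebo mice and 0.292, 0.391, 0.409, 0.371 and 0.706 in LFD mice. LFD 5, the library with the epithelial transcripts, was the 1 LFD mouse among the HFD placebo values, and HFD estradiol 1 was the 1 HFD estradiol mouse that reached them. The part of other tissue in the LFD 5 value was not tested. HFD placebo was 1.70-fold higher than LFD (exact p = 0.0238, adjusted 0.0935). The second limma fit gave 0.68 (SE 0.19, adjusted p = 0.0114), a call kept in 15 of 15 alternatives with estimates of 0.58 to 1.64, the highest on FPKM as deposited. HFD estradiol minus HFD placebo was -0.57 (second fit, SE 0.19, adjusted p = 0.0389; exact p = 0.0159, adjusted 0.0794), with -0.39 and an adjusted p of 0.448 when lane was a term, and called in 5 of 15 alternatives.

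Pdgfa, a ligand of Pdgfra on progenitor cells, was highest in HFD placebo. It had 0.422, 0.306, 0.129, 0.549 and 0.400 scaled FPKM in HFD estradiol mice, 1.02, 0.886, 0.799, 0.656 and 0.624 in HFD placebo mice and 0.263, 0.205, 0.301, 0.647 and 0.759 in LFD mice. All HFD estradiol mice lay below all HFD placebo mice, in a comparison where 14.4% of the 16111 genes did not overlap. LFD 4 and LFD 5 reached the HFD placebo range. LFD values rest on an estimated 4.4 to 22.0 fragments per library, and that of HFD estradiol 3 on 8.77. HFD estradiol was 2.21-fold lower than HFD placebo (exact p = 0.0079, adjusted 0.0552). The second limma fit gave -1.02 (SE 0.30, adjusted p = 0.0212), lost when lane was a term (-0.76, adjusted p = 0.319) and without HFD placebo 1 or HFD estradiol 3 (adjusted p up to 0.0587). HFD placebo was 1.83-fold higher than LFD (second fit 0.85, SE 0.30, adjusted p = 0.0388; exact p = 0.0397, adjusted 0.132), with adjusted p up to 0.0998 without any of LFD 1, 2 or 3 and HFD placebo 1, 2 or 3. In HFD placebo, lane 5 held the 3 higher values and lane 6 the 2 lower ones.

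Pdgfd, a latent ligand of Pdgfrb that is activated by proteases such as Plau, was called in no comparison on the scaled values. It had 0.682 to 1.13 scaled FPKM in HFD estradiol, 0.697 to 1.12 in HFD placebo and 0.510 to 1.03 in LFD. The limma difference was 0.12 (SE 0.09, adjusted p = 0.308) for HFD placebo minus LFD and 0.04 (SE 0.09, adjusted p = 0.791) for HFD estradiol minus HFD placebo. Groups overlapped over most of their range. On FPKM as deposited, HFD placebo minus LFD was 0.69 and was called (adjusted p = 0.026).

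In HFD estradiol set against LFD, 4 ligands were called by at least 1 of the 2 limma fits. The first fit called Fgf10, Vegfb and Vegfa, where 3.95% of all genes tested were higher and 3.74% lower. The second called Fgf7 and Vegfa but not Fgf10 or Vegfb, where 3.9% of all genes were called in either direction. Fgf10 was 1.36-fold higher in HFD estradiol (limma 0.26, SE 0.07, adjusted p = 0.0247), with no overlap. Vegfb was 1.30-fold lower (limma -0.31, SE 0.08, adjusted p = 0.0317), also with no overlap, where 8.05% of all genes tested did not overlap. Vegfa was 1.52-fold lower (limma -0.49, SE 0.13, adjusted p = 0.0301), with HFD estradiol 5 within the LFD range. Fgf7 was 3.12-fold higher by the means (second fit 1.00, SE 0.25, adjusted p = 0.0301; exact p = 0.0159, adjusted 0.219). Across alternatives the call was kept for Fgf10 in 12 of 19, for Vegfa in 7 of 19, for Vegfb in 7 of 19 and for Fgf7 in 7 of 14. It was lost at a constant sum and with upper quartiles for Vegfa (adjusted p = 0.0704 and 0.0726) and Vegfb (0.09 and 0.136), and with no filter for Fgf10 (0.053), Vegfa (0.0735) and Vegfb (0.0689). All 4 are confounded with lane, and each lost its call without some single libraries, with highest adjusted p of 0.065 for Fgf10, 0.083 for Vegfb, 0.0772 for Vegfa and 0.088 for Fgf7. Without LFD 5 the adjusted p was 0.0485 for Fgf10, 0.0746 for Vegfb and 0.0687 for Vegfa, and the call of Fgf7 was lost as well.

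The order of the ligands by mean level changed with the group. In HFD estradiol it ran Vegfb, Vegfa, Fgf1, Fgf10, Fgf2, Pdgfd, Hgf, Pdgfa, Fgf7 and Vegfc. In HFD placebo it ran Fgf1, Vegfa, Vegfb, Pdgfd, Pdgfa, Hgf, Fgf10, Fgf2, Fgf7 and Vegfc, and in LFD Vegfa, Vegfb, Fgf1, Fgf10, Fgf2, Pdgfd, Pdgfa, Hgf, Vegfc and Fgf7. Several neighbours were not apart: Vegfb was above Vegfa in 3 of 5 HFD estradiol mice, Fgf1 above Vegfa in 3 of 5 HFD placebo mice, and Vegfa above Vegfb in 3 of 5 LFD mice. Vegfb was above Pdgfd in 5 of 5 HFD placebo mice, and Fgf1 above Fgf10 in 5 of 5 mice of HFD estradiol and of LFD. The 10 levels summed to a median of 15.1 scaled FPKM in HFD estradiol, 12.6 in HFD placebo and 17.5 in LFD. Vegfa and Vegfb made up a median of 52.6% of that sum in HFD estradiol, 38.7% in HFD placebo and 63.3% in LFD, and Fgf1 made up 14.2%, 28.7% and 16.1% in the same groups.

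Receptors and coreceptors were measured in the same tissue, although the epithelial targets of secreted ligands lie outside it. Of 19 on the list, 13 were tested by the first fit. Gpc1 passed its filter only through the 5 HFD placebo libraries, the group where it was highest. Klb and Met were under 1 in all HFD placebo libraries and passed through HFD estradiol and LFD. In HFD placebo minus LFD 5 were higher (Gpc1, Nrp2, Pdgfra, Pdgfrb, Sdc4) and 6 lower (Fgfr1, Fgfrl1, Flt1, Kdr, Klb, Met), with a median log2 fold change of 0.04 against -0.01 over all genes tested. Among all genes tested, 21.3% were higher and 22.0% lower. With lane as a term the call of Fgfr1 was lost (-0.24, adjusted p = 0.0873). In HFD estradiol minus HFD placebo 4 were higher (Fgfr1, Fgfrl1, Klb, Met) and 4 lower (Gpc1, Nrp2, Pdgfrb, Sdc4), with a median of 0.15 against 0.01 over all genes. The shares of all genes were 14.3% higher and 16.0% lower. In HFD estradiol minus LFD 2 were higher (Nrp1, Pdgfra) and 1 lower (Fgfrl1), where 3.95% of all genes were higher and 3.74% lower.

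Met, the Hgf receptor, was lowest in the group in which its ligand was highest. It had 1.17, 1.05, 1.11, 0.917 and 1.26 scaled FPKM in HFD estradiol mice, 0.464, 0.419, 0.357, 0.502 and 0.432 in HFD placebo mice and 1.17, 1.39, 1.50, 1.09 and 1.21 in LFD mice. HFD placebo lay apart below both other groups, with limma differences of -0.66 from LFD (SE 0.06, adjusted p = 1.53e-06) and 0.55 for HFD estradiol minus HFD placebo (SE 0.06, adjusted p = 1.62e-05). In these comparisons, 27.6% and 21.2% of all genes tested did not overlap. Fgfr2, the receptor of Fgf7 and Fgf10, was low at 0.190 ± 0.0522 in HFD estradiol, 0.0860 ± 0.0318 in HFD placebo and 0.358 ± 0.101 in LFD (SD, n = 5 each). The second limma fit gave -1.29 for Fgfr2 in HFD placebo minus LFD, with no overlap between those groups (exact adjusted p = 0.0464, where the exact test called 17.1% of the 16111 genes). In HFD estradiol minus HFD placebo it gave 0.64 (adjusted p = 0.0228, exact adjusted p = 0.102), a call lost with lane as a term (0.50, adjusted p = 0.308). Fgfr1, the main FGF receptor of fat, had means of 4.48, 3.30 and 4.08 in HFD estradiol, HFD placebo and LFD, and Klb, its coreceptor for hormone-like FGFs, 1.96, 0.823 and 2.19.

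The VEGF receptors Kdr and Flt1 were lower in HFD placebo than in LFD, and the coreceptor Nrp2 was higher. Kdr, the Vegfa receptor, averaged 2.10 ± 0.335 in HFD estradiol, 1.71 ± 0.510 in HFD placebo and 2.63 ± 0.481 in LFD (SD, n = 5 each), with -0.43 for HFD placebo minus LFD (limma adjusted p = 0.00785) and 0.20 for HFD estradiol minus HFD placebo (adjusted p = 0.209). Flt1, the Vegfb receptor, was also lower in HFD placebo than in LFD (limma -0.23, adjusted p = 0.00795). Flt4, the Vegfc receptor, averaged 0.195 in HFD estradiol, 0.167 in HFD placebo and 0.277 in LFD, and HFD placebo minus LFD was not called (second limma fit -0.47, adjusted p = 0.0608; exact adjusted p = 0.0935). Nrp2, a coreceptor of VEGFs and semaphorins, was higher in HFD placebo, at 2.74 ± 0.353 against 1.31 ± 0.200 in LFD (limma 0.69, adjusted p = 1.34e-05). HFD estradiol had a Nrp2 mean of 1.64 and was lower than HFD placebo (limma -0.51, adjusted p = 0.000388). Nrp1, its paralog, averaged 6.16 in HFD estradiol and 4.66 in LFD (limma 0.34, adjusted p = 0.0163).

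PDGF receptors were called higher in HFD placebo than in LFD. Pdgfra averaged 2.69 ± 0.731 in HFD estradiol, 2.29 ± 0.586 in HFD placebo and 1.42 ± 0.209 in LFD, with limma differences of 0.43 for HFD placebo minus LFD (adjusted p = 0.0158) and 0.59 for HFD estradiol minus LFD (adjusted p = 0.0135). Pdgfrb averaged 1.52 ± 0.120 in HFD estradiol, 2.24 ± 0.241 in HFD placebo and 1.50 ± 0.308 in LFD, with 0.38 for HFD placebo minus LFD (adjusted p = 0.00113) and -0.36 for HFD estradiol minus HFD placebo (adjusted p = 0.00257). With lane as a term, the calls of HFD estradiol minus HFD placebo were kept for Met, Klb, Gpc1 and Nrp2 and lost for Fgfr1, Fgfrl1, Sdc4 and Pdgfrb, with adjusted p of 0.068 to 0.097.

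**Figure D4:**
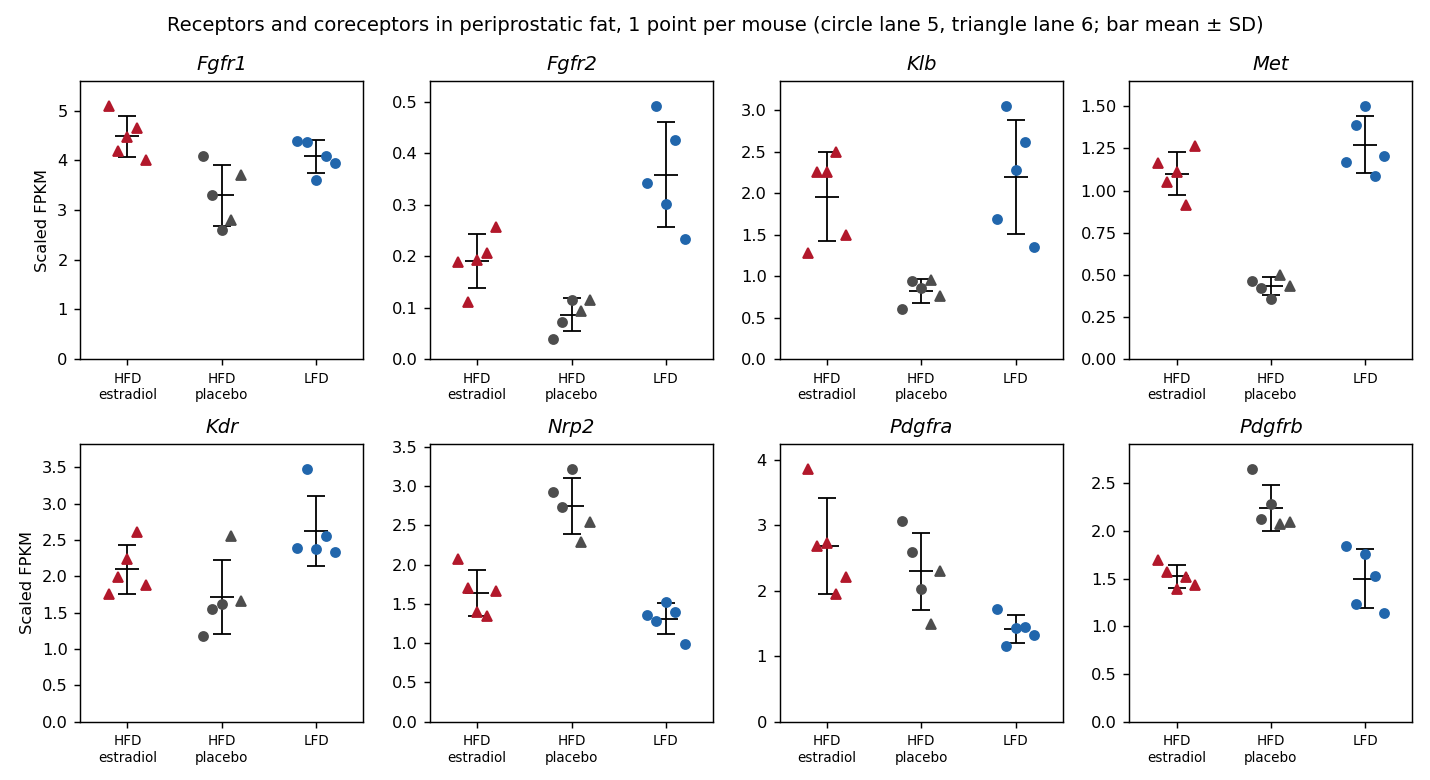
Scaled FPKM (y axis, from 0, a separate scale for each gene) of 8 receptors and coreceptors in HFD estradiol, HFD placebo and LFD mice, 1 point per mouse, with circles for lane 5, triangles for lane 6 and bars for the mean and SD of 5 mice. Met and Klb in HFD placebo, at most 0.502 and 0.953, lie below every mouse of both other groups, and Nrp2 and Pdgfrb in HFD placebo lie above them. Of all genes tested, 27.6% did not overlap between HFD placebo and LFD, and 21.2% between HFD estradiol and HFD placebo.

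Of 23 other ligands of the same families only Fgf13 and Figf, the symbol for Vegfd, were tested by the first fit. Fgf13, an intracellular FGF homolog that does not act as a secreted ligand, averaged 0.945 ± 0.562 in HFD estradiol, 1.72 ± 0.384 in HFD placebo and 0.339 ± 0.432 in LFD, and was higher in HFD placebo than in LFD (limma 1.06, adjusted p = 0.000377). Fgf13 reached a scaled FPKM of 1 in 7 libraries, among them every HFD placebo library (lowest 1.38). Without HFD placebo, the group where it was highest, it would not have passed the filter of that fit. Figf averaged 1.93, 1.69 and 1.69 in HFD estradiol, HFD placebo and LFD and was called in no comparison by limma (0.01 for HFD placebo minus LFD, adjusted p = 0.95). Below the tested level, Pdgfb averaged 0.581, 0.962 and 0.676, Pdgfc 0.624, 0.409 and 0.526, and Pgf 0.0900, 0.204 and 0.156 in the same groups. Fgf11, an intracellular homolog like Fgf13 that was added after its values were seen, averaged 0.325 in HFD estradiol, 0.117 in HFD placebo and 0.440 in LFD. Neither comparison with HFD placebo showed an overlap (second limma fit -1.30, adjusted p = 0.000116 and exact adjusted p = 0.0464 for HFD placebo minus LFD; 0.96, adjusted p = 0.00235 and exact adjusted p = 0.0552 for HFD estradiol minus HFD placebo). Of the 16111 genes, the exact test called 17.1% in HFD placebo minus LFD, and 14.4% did not overlap in HFD estradiol minus HFD placebo. Fgf21, Fgf9 and Fgf18 had means of at most 0.199 in each group.

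Genes that release or bind these ligands were higher in HFD placebo than in LFD in 4 of 7 tested (Plau, Sparc, Thbs1, Thbs2) and lower in 1 (Pcsk6). Among all genes tested, 21.3% were higher and 22.0% lower. Plau, the urokinase that can activate Hgf and Pdgfd, averaged 3.21 ± 0.799 in HFD estradiol, 4.54 ± 0.744 in HFD placebo and 1.79 ± 0.449 in LFD (SD, n = 5 each), with limma differences of 0.99 for HFD placebo minus LFD (adjusted p = 4.63e-05) and -0.40 for HFD estradiol minus HFD placebo (adjusted p = 0.0418). Thbs1, a matrix protein that restrains vessel growth, averaged 12.5 ± 7.26, 7.67 ± 2.79 and 1.43 ± 0.466 in HFD estradiol, HFD placebo and LFD, with 1.79 for HFD placebo minus LFD (limma adjusted p = 0.000155) and 2.34 for HFD estradiol minus LFD (adjusted p = 0.000217). In HFD estradiol minus HFD placebo, Pcsk6 and Thbs2 were higher and Plau and Sparc lower, where 14.3% of all genes tested were higher and 16.0% lower.

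Of 5 tested feedback and target genes of receptor tyrosine kinases, Dusp6 and Spred1 were higher and Dusp4 and Sulf2 lower in HFD placebo than in LFD. The shares of all genes tested in that comparison were 21.3% higher and 22.0% lower. Spred1, an inhibitor of the Ras pathway, averaged 1.22, 1.71 and 1.01 in HFD estradiol, HFD placebo and LFD, and Sulf2, an enzyme that trims heparan sulfate, 10.8, 7.54 and 10.9. HFD estradiol minus HFD placebo had the opposite sign for both (limma -0.29, adjusted p = 0.00949 for Spred1, 0.47, adjusted p = 0.00575 for Sulf2), and none of the 5 was called in HFD estradiol minus LFD. Of 8 tested hypoxia-responsive genes, on a list that does not hold Vegfa, 2 were higher (Hif1a, Pgk1) and 5 lower (Arnt, Bnip3, Egln1, Epas1, Ndrg1) in HFD placebo than in LFD. The same shares of all genes, 21.3% higher and 22.0% lower, stand beside these counts. Epas1, the hypoxia factor HIF-2 alpha, averaged 6.16 ± 1.06 in HFD estradiol, 5.04 ± 0.531 in HFD placebo and 8.60 ± 0.652 in LFD (limma -0.67 for HFD placebo minus LFD, adjusted p = 6.08e-05).

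Markers of cell types moved with these groups, and in bulk tissue fewer cells of a type and less RNA per cell cannot be told apart. Among all genes tested, 21.3% were higher and 22.0% lower in HFD placebo than in LFD. In HFD estradiol minus HFD placebo, 14.3% were higher and 16.0% lower. Of 15 tested adipocyte markers, 13 were lower and 1 higher (Lep) in HFD placebo than in LFD, and 11 were higher and 1 lower (Lep) in HFD estradiol than in HFD placebo, the directions of Vegfb and Fgf10. Of 15 macrophage markers, 14 were higher in HFD placebo than in LFD, and 13 were lower and 1 higher (Cd163) in HFD estradiol than in HFD placebo, the directions of Hgf and Pdgfa. Their sums were 93.2 to 223 scaled FPKM in HFD estradiol, 224 to 650 in HFD placebo and 57.2 to 139 in LFD. Of 16 tested endothelial markers, 1 was higher (Ramp2) and 2 lower (Emcn, Ptprb) in HFD placebo than in LFD, and 1 was higher (Tek) in HFD estradiol than in HFD placebo. Endothelial sums were 34.2 to 42.1 in HFD estradiol, 34.4 to 46.9 in HFD placebo and 36.5 to 44.2 in LFD. Of 12 progenitor markers, 7 were higher in HFD placebo than in LFD, and 4 were higher and 3 lower in HFD estradiol than in HFD placebo. No marker of the adipocyte, macrophage, endothelial or progenitor lists was at 0 throughout a group. The part of each cell type in the ligand differences was not tested.

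Markers of other cell types reached the tested level unevenly. The shares of all genes called that are given above apply to them as well. None of 15 epithelial markers did. Of 8 mesothelial markers 2 were tested, of which Upk3b was lower in HFD placebo than in LFD, with sums of 3.25 to 8.52 in HFD estradiol, 1.10 to 5.63 in HFD placebo and 3.09 to 11.1 in LFD. Of the 10 B and T lymphocyte markers found, only Cd79a and Cd79b were tested, and both were lower in HFD placebo than in LFD. Pericyte and smooth muscle markers were split, with Acta2 higher and Myh11 lower among 8 tested in HFD placebo minus LFD, and Tagln higher and Cspg4 lower in HFD estradiol minus HFD placebo. Of 2 tested skeletal muscle markers, Myl1 was lower in HFD placebo than in LFD and higher in HFD estradiol than in HFD placebo. Hoxb13, Krt5 and Spink3 were at 0 in all HFD estradiol libraries, and Svs2 and Svs4 in all libraries of the study. Of 7 lymphatic markers only 2, Lyve1 and Pdpn, were tested. Both were higher in HFD estradiol than in LFD (limma 0.74, adjusted p = 0.0286 for Lyve1, 0.48, adjusted p = 0.044 for Pdpn). In that comparison 3.95% of all genes tested were higher, and lane and group cannot be told apart. Flt4, on the same list but below the tested level, had a lower mean in HFD estradiol (0.195) than in LFD (0.277) and was not called (second limma fit -0.34, adjusted p = 0.364).

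The 5 tested genes most like Vegfb in profile, by the root mean square difference of standardised log2 values over 15 libraries, were Aldh2 (0.198), Cyp2e1 (0.217), Fmo1 (0.226), Eci3 (0.241) and Gnai1 (0.252). Aldh2 averaged 15.2 scaled FPKM in HFD estradiol, 8.12 in HFD placebo and 20.2 in LFD. The genes most like Vegfa were Gys1 (0.355), Arhgap5 (0.361), Sowahc (0.374), Pdhx (0.377) and Nfatc3 (0.382), all at a larger distance than the 5 of Vegfb. Gys1, muscle-type glycogen synthase, averaged 2.68, 1.65 and 3.90 in HFD estradiol, HFD placebo and LFD.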

How the data were processed

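Stranded libraries were made from rRNA-depleted total RNA (integrity number over 7), per the labels. The authors deposited 1 table of FPKM per library by gene symbol, from STAR and Cufflinks on mm10 per the submitters' processing notes; versions, annotation and use of strand are not given in the sources used here. Values were divided by a median-of-ratios factor per library (5874 genes with a mean FPKM of at least 1) and tested as log2(scaled FPKM + 1) with limma 3.58.1 (trend, robust; R 4.3.3) on all 15 libraries, group as the only factor. Low genes used the exact permutation test (Python 3.11.15). Depth was estimated from the spacing of low FPKM values in 1636 genes, of which 54.2% to 66.0% lay within 2% of whole multiples. The symbol Mir6236 took 10.2% to 53.1% of the sum of FPKM. The procedure was tested on simulated data. Positions are from GENCODE vM21, GRCm38. Members and gene lists were chosen with earlier results of these data known. The text names all 10 ligands, set receptors and family members, and up to 4 called genes per list with the smallest adjusted p (3 for marker lists); other list genes stand beside their counts. Alternatives covered scaling, pseudocount, filter, samples, lane, replicate block and single libraries.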

Additional observations from a re-analysis of the deposited data

Results flagged for a closer look

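Hgf in LFD 5, at 0.706 scaled FPKM, lay far from the other 4 LFD mice, which ran from 0.292 to 0.409: its gap to the nearest of them was 0.717 of the group's whole range. Of 33 groups of values examined it was the 1 that stood out in this way. Chance gives about 1 in 20, so 1 such value among 33 groups is no more than chance would give. LFD 5 is also the library with 129 scaled FPKM of epithelial markers, against at most 0.750 elsewhere, and the part of that tissue in the Hgf value was not tested. Without LFD 5 the second limma fit called Hgf in HFD placebo minus LFD as well, since the call was kept without each library in turn (0.58 to 0.84, adjusted p 0.0015 to 0.0353).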

How the results depend on the processing

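Against 2431 genes called in HFD placebo minus LFD, limma called 3908 with no filter, 3998 with a filter of 0.1, 4016 with filter and pseudocount 0.1 and 3805 with lane added to these. Against 1706 in HFD estradiol minus HFD placebo, it called 276 on FPKM as deposited, 2606 with no filter, 2710 with a filter of 0.1, 2698 with filter and pseudocount 0.1, 711 with lane as a term, 821 with lane, filter and pseudocount, and 681 within lane 6. Against 432 in HFD estradiol minus LFD, 39 were called on FPKM as deposited. Larger counts come with more genes tested and those within lane 6 with fewer samples; otherwise the cause was not tested.

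Scaling moved the split of calls. HFD placebo minus LFD had 1197 higher and 1234 lower, against 3009 and 18 as deposited, 1540 and 752 at a constant sum without Mir6236, and 1393 and 891 with upper quartiles. HFD estradiol minus HFD placebo had 805 and 901, against 13 and 263 as deposited and 583 and 974 at a constant sum. HFD estradiol minus LFD had 222 and 210, against 39 and 0, 264 and 116, and 397 and 112 with upper quartiles. The median of all genes moved to 0.77, -0.27 and 0.49 in the 3 comparisons as deposited, and by less than 0.1 under the other scalings.

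As deposited, HFD placebo minus LFD turned to 0.032 for Fgf10 (adjusted p = 0.916) and 0.28 for Vegfa (0.504), and HFD estradiol minus LFD to 0.18 for Vegfa (0.679) and 0.35 for Vegfb (0.409). Vegfb and Fgf10 in HFD estradiol minus HFD placebo were then 0.50 and 0.66 and not called. Under the other 21 of 22 alternatives these calls of Fgf10, Vegfa and Vegfb in HFD placebo minus LFD, and of Fgf10 and Vegfb in HFD estradiol minus HFD placebo, were kept. By the exact test, 1 low ligand (Hgf, adjusted p = 0.0479) was called in HFD placebo minus LFD at a constant sum, against 0. Without 1 library each, the log2 ratio of Vegfa to Vegfb was 0.49 to 0.67, -0.88 to -0.70 and -0.30 to -0.14 in the 3 comparisons.

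Replicate numbers did not pair the mice: same-numbered libraries correlated at -0.210 to 0.111, -0.128 to 0.157 and -0.0243 to 0.360, and 0, 1 and 2 of 5 correlated best with their own number. With the replicate block 2427, 1685 and 431 genes were called, and Vegfa (adjusted p = 0.0543) and Vegfb (0.0599) lost their call in HFD estradiol minus LFD. Depth limits Fgf7 and Vegfc most, at an estimated 2.98 and 2.66 fragments in their lowest libraries.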
